A study of Mus musculus with 6 samples.

Results

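The 10 genes described here encode the 5 Rel-family subunits of NF-kB (Nfkb1, Nfkb2, Rel, Rela and Relb) and 5 inhibitors of NF-kB (Nfkbia, Nfkbib, Nfkbie, Nfkbiz and Tnfaip3). They were taken by gene symbol from a table of 31426 genes, and all 10 were measured in all 6 libraries and passed the filter on low counts. The RNA came from hepatic CD11c+ cells, isolated with magnetic beads from C57BL/6 mice fed a high-fat diet (HFD) for 14 weeks, for which the labels give an age of 4 to 8 weeks without saying when it was taken. Atg5 CD11cKO mice carry floxed Atg5, which encodes a protein needed to form autophagosomes, and a Cre transgene under the Itgax (CD11c) promoter, so the deletion can occur in any cell that uses this promoter. Their floxed littermates served as wild-type (WT) controls. The labels number the WT libraries 21, 22 and 23 and the Atg5 CD11cKO libraries 25, 26 and 27. The sources do not say which mouse or mice each library came from, so p-values measure the spread between libraries.

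NF-kB is a family of dimeric transcription factors that drive cytokine, chemokine and survival genes in dendritic cells (DCs) and macrophages. In resting cells IkB proteins hold the dimers in the cytoplasm. In the canonical arm the IKK kinase complex triggers the destruction of IkB and frees dimers of p65 (from Rela) or c-Rel (from Rel) with p50 (from Nfkb1). In the non-canonical arm NIK and IKKα lead to the processing of p100 (from Nfkb2) to p52, which acts with RelB (from Relb). Several inhibitors, such as Nfkbia and Tnfaip3, are themselves NF-kB targets, a well-known negative feedback. The study measured active p65 and p52 protein in these cells by flow cytometry. It reported more p65 in Atg5 CD11cKO cells and no effect on p52. RNA is a different measure from active protein. The question addressed here is how the RNA of both arms and of the inhibitors stood in both genotypes.

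Promoter sequences of a few members are shown because they carry letters that NF-kB dimers are known to bind. RefSeq promoter windows of the build GRCm38.p6 were at hand for 7 of the 10 members (Nfkb2, Rel, Rela, Nfkbia, Nfkbib, Nfkbie and Tnfaip3), and not for Nfkb1, Relb and Nfkbiz. The 250 bases before each start were searched on both strands for 1 motif, the kB consensus of 10 letters. In the lines that follow, capitals mark a match, and overlapping matches were joined.
Nfkbia: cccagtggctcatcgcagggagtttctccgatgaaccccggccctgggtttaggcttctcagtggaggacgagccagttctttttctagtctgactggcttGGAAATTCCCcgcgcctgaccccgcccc
Nfkbie: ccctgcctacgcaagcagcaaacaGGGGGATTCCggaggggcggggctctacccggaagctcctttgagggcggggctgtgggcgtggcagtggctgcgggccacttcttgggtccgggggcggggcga
Tnfaip3: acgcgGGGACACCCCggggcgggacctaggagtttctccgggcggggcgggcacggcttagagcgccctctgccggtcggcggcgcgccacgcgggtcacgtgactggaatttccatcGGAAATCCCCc
Rel: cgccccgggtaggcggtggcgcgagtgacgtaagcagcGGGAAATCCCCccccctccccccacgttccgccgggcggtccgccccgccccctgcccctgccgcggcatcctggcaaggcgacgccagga
Nfkb2: acGGGAATTCCCCccctcggggggccgaaa
The first 4 stretches run from 130 to 2 bases before the start and hold no base of an exon in GENCODE vM21. They lie at chr12:55492649-55492777 (minus strand), chr17:45555570-45555698 (plus strand), chr10:19015412-19015540 (minus strand, inside an intron of a longer Tnfaip3 transcript) and chr11:23770971-23771099 (minus strand). For Nfkb2 30 bases are shown, at chr19:46304696-46304725 on the plus strand, because they lie in an exon of another Nfkb2 transcript, and a second match, GGGGCTTTCC, stands 11 to 2 bases before the same start. The table holds 3 windows for Nfkb2, of which the other two each had 1 further match, and 2 for Tnfaip3, of which the second had none; the sequences shown come from the window farthest upstream.

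A match was found in 5 of the 7 members with a window, and in neither Rela nor Nfkbib. Over all genes with a window, 2225 of 27018 (8.24%) held one. Among the genes tested for expression 1231 of 11766 (10.5%) did, and among known NF-kB target genes 11 of 32 (34.4%). In Nfkbia the match began 29 bases before the start, in Nfkbie 106, in Rel 92, and in Tnfaip3 at 125 and 12 bases. These are matches of letters, and binding was not measured.

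Library totals lay between 31064570 and 34034675 estimated counts. Levels are given as CPM, the counts scaled to library size, with TMM factors. Atg5, the deleted gene, stood at 54.0 CPM in WT 21, 49.8 in WT 22, 22.1 in the library labelled WT 23, next to 21.3, 21.0 and 20.8 in Atg5 CD11cKO 25, 26 and 27. The library labelled WT 23 thus had the Atg5 level of the Atg5 CD11cKO libraries. Over all genes its counts differed from those of each Atg5 CD11cKO library by a chi-square of 5.53 to 6.80 per degree of freedom, against 5.95 to 6.59 within Atg5 CD11cKO, 9.21 between WT 21 and WT 22, and 175 to 176 between it and those 2 WT libraries. Results for the members are therefore given over the 6 libraries as labelled and again without the library labelled WT 23, which leaves 2 WT against 3 Atg5 CD11cKO libraries. That library was left out because its profile in these same data was like Atg5 CD11cKO. The p-values against WT 21 and 22 do not allow for this choice and can be too small. For most other named genes the fold change is given against WT 21 and 22 only, and the calls as labelled are given by list. Itgax, the marker used for the isolation, stood at 432 CPM in WT 21, 444 in WT 22, 472 in the library labelled WT 23 and between 464 and 492 in Atg5 CD11cKO. It rose by a log2 fold change of 0.14 ± 0.04 (edgeR, adjusted p = 0.015) against WT 21 and 22, and did not pass as labelled (0.09 ± 0.08, adjusted p = 0.54).

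All 10 genes were well expressed, and the inhibitors spanned a wider range than the subunits. Per kilobase of annotated exon, Nfkbia had the highest level, with a median of 769 CPM per kilobase over the 6 libraries, followed by Tnfaip3 with 125. Next came Nfkbiz (56.1) and Rela (52.9), whose ranges over the libraries overlapped. Nfkbie (42.5), Nfkbib (40.5), Relb (36.2) and Nfkb2 (31.5) formed a chain in which each range overlapped the next, and Nfkb1 (15.3) and Rel (14.3) stood last with overlapping ranges.

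**Figure D1:**
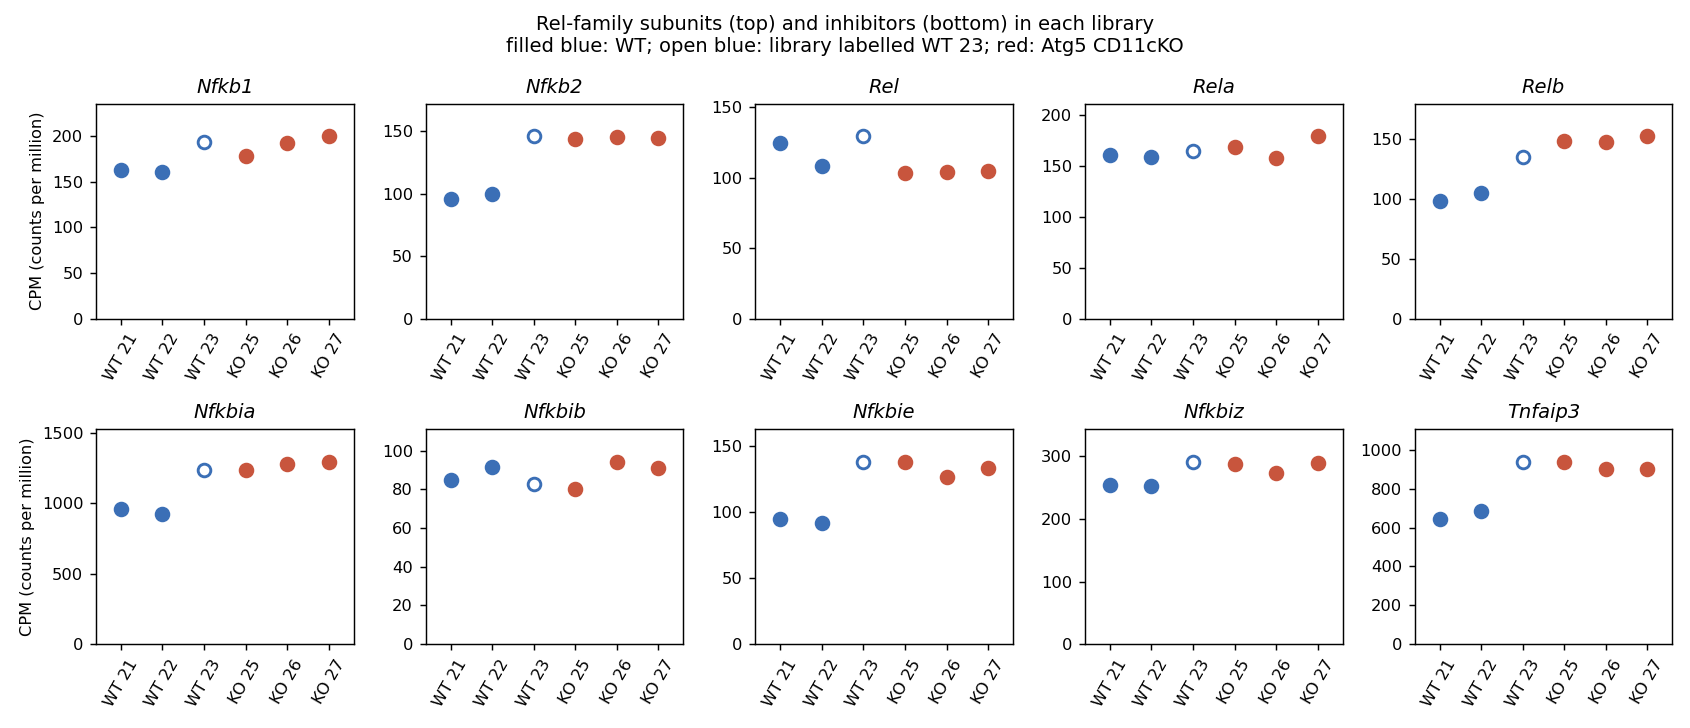
CPM (vertical axes, from 0) of the 5 subunits (top row) and 5 inhibitors (bottom row) in each library (horizontal axes). Each point is 1 library: filled blue, WT 21 and 22; open blue, the library labelled WT 23; red, Atg5 CD11cKO (KO). The open point lies above both filled blue points in every panel but that of Nfkbib, and for Rel it lies farther above the red points than in any other panel, at 129 CPM against 104 to 105.

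Over the 6 libraries as labelled, none of the 10 genes passed edgeR's quasi-likelihood test at a Benjamini-Hochberg adjusted p of 0.05 in either direction, and neither did any other gene (0% of 17499 higher and 0% lower). At an unadjusted p under 0.05, 2 members were higher (Relb and Nfkbia; 5.21% of all genes) and 1 was lower (Rel; 9.17% of all genes). DESeq2 and limma-voom called no member either, although DESeq2 called 37 other genes higher and 305 lower. The 2 genotypes did not overlap in CPM for Relb, which was higher, and for Rel, which was lower. That is 1 of 10 members in each direction, near the 9.58% and 8.73% of all genes.

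Between WT 21 and 22 and the 3 Atg5 CD11cKO libraries, 7 of the 10 members rose: Nfkb1, Nfkb2, Relb, Nfkbia, Nfkbie, Nfkbiz and Tnfaip3. No member fell by this test. Of all 18241 genes tested, 15.9% rose and 15.1% fell. With a filter of 1 CPM in 3 libraries, 2826 of 14069 genes rose and 2712 fell. These genes include many at lower levels than the members, where a change is harder to call. No share among genes of like level was taken, here or for the lists below. The same 7 members lay above both WT libraries in all 3 Atg5 CD11cKO libraries, as did 27.0% of all genes, and Rel lay below both, as did 28.0%. The median log2 fold change was 0.34 over the 10 members, 0.23 over the 5 subunits and 0.44 over the 5 inhibitors, against -0.01 over all genes. The corresponding medians over the 6 libraries as labelled were 0.21, 0.14 and 0.27, also against -0.01. All of these changes were moderate. No member reached a 2-fold change with an unadjusted p under 0.05 in either comparison. Of all genes 0.731% were higher and 3.97% lower by these limits as labelled, while against WT 21 and 22 the shares were 5.16% and 7.27%.

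**Figure D2:**
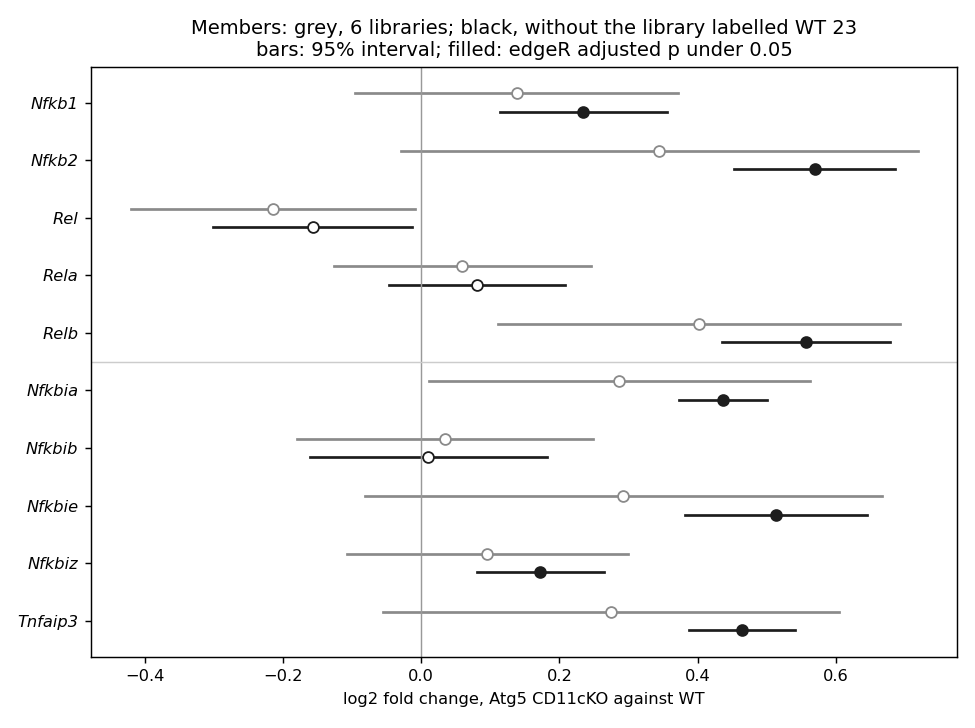
Log2 fold change of Atg5 CD11cKO against WT (horizontal axis) for each member (vertical axis, subunits above the line and inhibitors below it), with 95% intervals from edgeR. Grey points are the 6 libraries as labelled and black points leave out the library labelled WT 23; filled points passed an adjusted p of 0.05. All 7 filled points are black and lie to the right of 0, between 0.17 for Nfkbiz and 0.57 for Nfkb2.

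Nfkb2 and Relb, the subunits of the non-canonical arm, had the largest fold changes of the 10. Nfkb2 (chromosome 19, 46304320 to 46312385, plus strand) encodes p100, which is both the precursor of p52 and an inhibitor of RelB dimers. It stood at 96.1 CPM in WT 21, 99.6 in WT 22 and 146 in the library labelled WT 23, next to 144, 145 and 145 in Atg5 CD11cKO 25, 26 and 27. The library labelled WT 23 was the highest of the 6, so the labelled groups overlapped, while WT 21 and 22 lay apart from the rest. The log2 fold change was 0.34 ± 0.16 (SE; edgeR, adjusted p = 0.35) over the 6 libraries and 0.57 ± 0.05 (adjusted p = 8.0e-06) with WT 21 and 22 as the controls.

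Relb encodes RelB, the partner of p52, and lies on chromosome 7 from 19606217 to 19629438 on the minus strand. Its level was 98.3 CPM in WT 21, 105 in WT 22 and 135 in the library labelled WT 23, against 148, 147 and 152 in Atg5 CD11cKO 25, 26 and 27. Relb was the only member for which every Atg5 CD11cKO library was above every library labelled WT. The library labelled WT 23 lay between the groups, nearer to the Atg5 CD11cKO libraries. The log2 fold change was 0.40 ± 0.12 (edgeR, adjusted p = 0.34, unadjusted p = 0.013) as labelled and 0.56 ± 0.06 (adjusted p = 1.4e-05) against WT 21 and 22.

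Of the canonical subunits Nfkb1, Rela and Rel, 1 passed the test against WT 21 and 22. Nfkb1 (chromosome 3, 135584655 to 135691547, minus strand) encodes p105, the precursor of p50. It was at 163 CPM in WT 21, 161 in WT 22, 193 in the library labelled WT 23, against 177, 192 and 199 in Atg5 CD11cKO 25, 26 and 27. Its log2 fold change was 0.14 ± 0.10 (edgeR, adjusted p = 0.50) over all 6, and it rose by 0.23 ± 0.06 (adjusted p = 0.0072) against WT 21 and 22. Rela (chromosome 19, 5637483 to 5648130, plus strand), which encodes p65, had 160 CPM in WT 21, 159 in WT 22, 165 in the library labelled WT 23, against 168, 157 and 179 in Atg5 CD11cKO. The groups overlapped for Rela in both comparisons. Its log2 fold change was 0.08 against WT 21 and 22 with a 95% interval from -0.05 to 0.21 (edgeR, adjusted p = 0.33), and 0.06 with an interval from -0.13 to 0.25 over the 6 libraries (adjusted p = 0.71).

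Rel, which encodes c-Rel, a subunit prominent in lymphocytes and DCs, was the only member at a lower level in Atg5 CD11cKO in both comparisons. It lies on chromosome 11 from 23736847 to 23770970. Its level was 124 CPM in WT 21, 109 in WT 22, 129 in the library labelled WT 23, against 104, 104 and 105 in Atg5 CD11cKO 25, 26 and 27. Every library labelled WT was above every Atg5 CD11cKO library, and the library labelled WT 23 was farthest from them. The log2 fold change was -0.21 ± 0.09 (edgeR, adjusted p = 0.35, unadjusted p = 0.043) as labelled. Leaving out the library labelled WT 23 gave -0.16 ± 0.07 (adjusted p = 0.095). This value rested on the WT library used: with WT 21 alone as the control it was -0.25 (adjusted p = 0.019) and with WT 22 alone -0.05 (adjusted p = 0.62), where the lone control is assumed to vary like the Atg5 CD11cKO libraries.

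Among the inhibitors, Nfkbia, the main IkB of the canonical arm (IkBα, chromosome 12, 55489410 to 55492647, minus strand), had the highest level of all members. Its level was 959 CPM in WT 21, 926 in WT 22 and 1239 in the library labelled WT 23, against 1238, 1277 and 1296 in Atg5 CD11cKO 25, 26 and 27. Only WT 21 and 22 stood apart, since the library labelled WT 23 fell within the Atg5 CD11cKO range by a small margin. Nfkbia rose by a log2 fold change of 0.44 ± 0.03 (edgeR, adjusted p = 4.6e-07) against WT 21 and 22, or from 943 ± 23.0 (SD, n = 2) to 1270 ± 29.8 CPM (SD, n = 3). As labelled the value was 0.29 ± 0.12 (adjusted p = 0.35).

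Tnfaip3 encodes A20, a ubiquitin-editing enzyme that shuts off signalling from TNF and Toll-like receptors to IKK, and lies on chromosome 10 from 19000910 to 19015657. It had 644 CPM in WT 21, 686 in WT 22, 936 in the library labelled WT 23, against 938, 901 and 902 in Atg5 CD11cKO 25, 26 and 27. The pattern was that of Nfkbia: WT 21 and 22 were low and the other 4 libraries were high and close together. Its log2 fold change was 0.46 ± 0.03 (edgeR, adjusted p = 1.3e-06) against WT 21 and 22 and 0.27 ± 0.14 (adjusted p = 0.37) as labelled. WT 21 and 22 did not overlap with the Atg5 CD11cKO libraries.

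Nfkbie, which encodes IkBε, a further cytoplasmic IkB (chromosome 17, 45555703 to 45563169, plus strand), stood at 94.8 CPM in WT 21, 91.2 in WT 22, 138 in the library labelled WT 23, against 138, 126 and 133 in Atg5 CD11cKO. It rose by 0.51 ± 0.06 on the log2 scale (edgeR, adjusted p = 5.1e-05) against WT 21 and 22, the largest fold change among the inhibitors, and had 0.29 ± 0.16 (adjusted p = 0.39) as labelled. Nfkbiz encodes IkBζ, a nuclear IkB that, unlike the cytoplasmic ones, can also act as a co-activator of genes such as Il6 (chromosome 16, 55811375 to 55838899, minus strand). It was at 254 and 253 CPM in WT 21 and 22, 291 in the library labelled WT 23, against 289, 274 and 290 in Atg5 CD11cKO. Its rise was the smallest of the 7, with a log2 fold change of 0.17 ± 0.04 (adjusted p = 0.0085), and 0.10 ± 0.09 (adjusted p = 0.58) as labelled.

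Nfkbib, which encodes IkBβ (chromosome 7, 28758251 to 28767512, minus strand), was the only inhibitor that did not pass against WT 21 and 22; as labelled, none of the 5 passed. It had 84.9 CPM in WT 21, 91.4 in WT 22, 82.7 in the library labelled WT 23, against 80.1, 94.2 and 91.0 in Atg5 CD11cKO. The groups overlapped in both comparisons. The log2 fold change was 0.01 with a 95% interval from -0.16 to 0.18 (edgeR, adjusted p = 0.94) against WT 21 and 22, and 0.03 with an interval from -0.18 to 0.25 (adjusted p = 0.86) as labelled, and its sign depended on the settings. Nfkbib overlaps Sirt2 on the other strand, which had 60.4 to 83.4 CPM, and Nfkb2 overlaps the antisense gene AC114539.1, which had 16.8 to 20.0 CPM. How the counting used strand is not given in the sources, so reads of these genes may not be fully separated.

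The RNA balance between the arms was taken within each library, as the mean log2 CPM of Nfkb2 and Relb minus that of Nfkb1, Rela and Rel. It does not depend on library scaling. It was -0.61 in WT 21, -0.46 in WT 22 and -0.19 in the library labelled WT 23, next to 0.00035, -0.0046 and -0.064 in Atg5 CD11cKO 25, 26 and 27. The 2 labelled groups did not overlap, and the library labelled WT 23 was nearer to Atg5 CD11cKO than to WT 21 and 22. The difference of the means was 0.40, a ratio of 1.32 (two-sided exact permutation test, p = 0.1, the smallest that 3 against 3 libraries allow). With 2 WT libraries it was 0.51, a ratio of 1.42 (two-sided exact permutation test, p = 0.2, again the smallest possible). Neither design can reach 0.05. The balance compares RNA levels, and the processing and activity of the proteins were not measured in these libraries. It therefore does not tell which arm was more active. Nfkb2 itself had matches to the kB motif before its starts, and binding was not measured.

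The second balance set the 3 cytoplasmic IkB genes (Nfkbia, Nfkbib and Nfkbie) against the 5 subunits in the same way. It was 0.66, 0.68 and 0.67 in WT 21, WT 22 and the library labelled WT 23, next to 0.71, 0.76 and 0.72 in Atg5 CD11cKO. These values also did not overlap, and here the library labelled WT 23 lay between WT 21 and WT 22. The difference was small, at 0.06 in both comparisons, a ratio of 1.04 (two-sided exact permutation tests, p = 0.1 and p = 0.2, the smallest possible with 3 and 2 WT libraries).

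**Figure D3:**
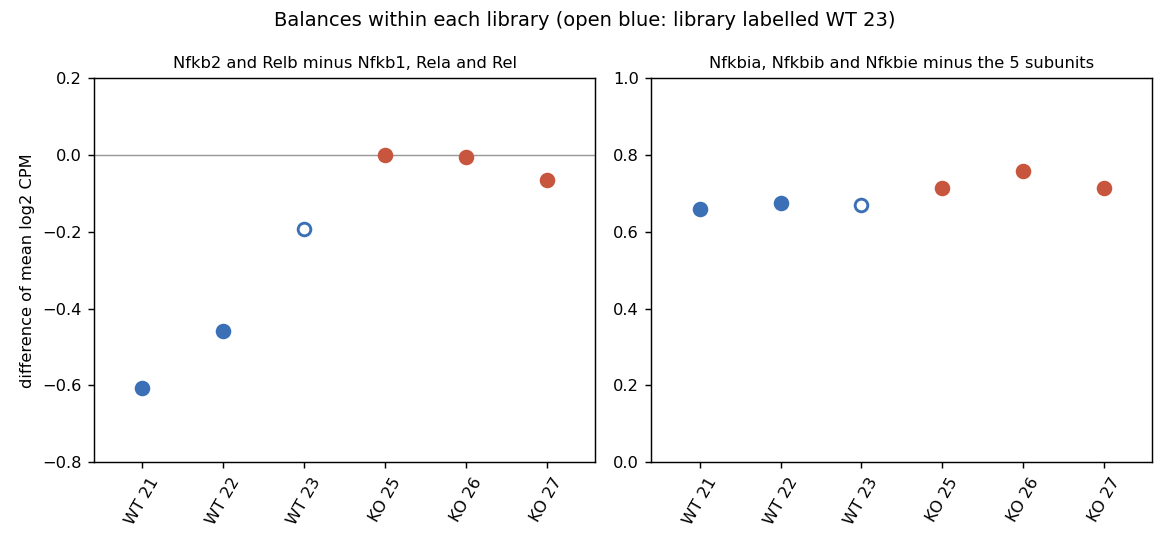
Difference of mean log2 CPM (vertical axes, with different ranges) in each library (horizontal axes), for Nfkb2 and Relb minus Nfkb1, Rela and Rel (left) and for Nfkbia, Nfkbib and Nfkbie minus the 5 subunits (right). Blue points are WT, open for the library labelled WT 23, and red points are Atg5 CD11cKO (KO). On the left the WT points lie between -0.61 and -0.19 and the red points between -0.06 and 0.00, and on the right the blue points lie between 0.66 and 0.68 and the red points between 0.71 and 0.76.

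Upstream of these proteins, 1 of the 6 genes of the IKK group fell and none rose against WT 21 and 22, near the 15.1% of all genes that fell. Chuk, which encodes IKKα, the kinase of the non-canonical arm, fell, with 161 and 169 CPM in WT 21 and 22, 120 in the library labelled WT 23, against 127, 123 and 122 in Atg5 CD11cKO (log2 fold change -0.41 ± 0.05, edgeR, adjusted p = 9.0e-05 against WT 21 and 22). Map3k14, which encodes NIK, had 99.7 and 111 CPM in WT 21 and 22, 91.1 in the library labelled WT 23, against 94.2, 93.5 and 104 in Atg5 CD11cKO (-0.11 ± 0.07, adjusted p = 0.30). Ikbkb (IKKβ; log2 fold change 0.07, adjusted p = 0.29) and Tbk1 (-0.02, adjusted p = 0.89) did not pass. No gene of this group rose, by edgeR, DESeq2 or limma-voom or at an unadjusted edgeR p under 0.05.

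Of 24 genes that carry signals from receptors to IKK, 9 rose and 6 fell against WT 21 and 22, where 15.9% of all genes rose and 15.1% fell. Myd88, the adaptor of Toll-like and interleukin-1 receptors, rose from 118 and 116 CPM in WT 21 and 22 to 155, 149 and 154 in Atg5 CD11cKO, with 148 in the library labelled WT 23 (log2 fold change 0.40 ± 0.05, edgeR, adjusted p = 0.00011). Irak1, a kinase recruited by Myd88, fell by 0.25 ± 0.05 (adjusted p = 0.0021), and Rbck1, which encodes HOIL-1, a subunit of the linear ubiquitin ligase, fell by 0.20 ± 0.04 (adjusted p = 0.0043). Traf1, an adaptor that is also an NF-kB target, rose by 0.23 ± 0.06 (adjusted p = 0.013), a call lost with WT 22 alone as the control (adjusted p = 0.0997) and without Atg5 CD11cKO 27 (adjusted p = 0.054).

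Of 16 other IkB proteins and negative regulators, 7 rose (Bcl3, Nfkbid, Tnip1, Tnip3, Otulin, Itch and Zc3h12a) and 1 fell (Pdlim2) in the same comparison. Of all genes 15.9% rose and 15.1% fell. Bcl3 encodes a nuclear IkB that binds p52 and p50 homodimers. It rose from 50.1 and 56.7 CPM in WT 21 and 22 to 81.7, 82.7 and 76.8 in Atg5 CD11cKO, with 75.5 in the library labelled WT 23 (log2 fold change 0.60 ± 0.08, edgeR, adjusted p = 0.00014). Nfkbid, which encodes the nuclear protein IkBNS, rose by 0.44 ± 0.06 (adjusted p = 0.00030), and Itch, a ubiquitin ligase that works with A20, by 0.27 ± 0.07 (adjusted p = 0.010). The deubiquitinase gene Cyld had a log2 fold change of -0.01 ± 0.06 (adjusted p = 0.91), and Tax1bp1, an A20 adaptor, -0.13 ± 0.04 (adjusted p = 0.052).

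Of 46 known NF-kB target genes outside the 10 members, 20 rose and 10 fell against WT 21 and 22. Of all genes 15.9% rose and 15.1% fell. The median log2 fold change of the 46 was 0.11, so the targets did not move one way. Among the 8 with the highest mean CPM over the 6 libraries, a choice that favours genes high in Atg5 CD11cKO, 7 rose. Ccr7, the receptor that guides mature DCs to lymph nodes, rose from 278 and 269 CPM in WT 21 and 22 to 592, 592 and 596 in Atg5 CD11cKO, with 593 in the library labelled WT 23 (log2 fold change 1.12 ± 0.03, edgeR, adjusted p = 4.5e-10). The chemokines Cxcl2 (0.88 ± 0.05, adjusted p = 6.3e-08) and Cxcl16 (0.76 ± 0.03, adjusted p = 6.6e-09), the adhesion molecule Icam1 (0.52 ± 0.04, adjusted p = 2.2e-06), the DC maturation marker Cd83 (0.32 ± 0.02, adjusted p = 3.7e-07), the cytokine Il1b (0.27 ± 0.03, adjusted p = 2.8e-05) and the AP-1 gene Junb (0.14 ± 0.02, adjusted p = 0.00020) also rose. The chemokine Ccl4 fell by 0.24 ± 0.05 (adjusted p = 0.0018). Il6, named here after its value was seen as the gene of the list that fell most, had a log2 fold change of -2.20 ± 0.23 (adjusted p = 2.4e-05).

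Il23a, which encodes the p19 subunit of IL-23 and which c-Rel is known to activate in mouse DCs, was near the lower limit of these libraries. It had 0.871 CPM in WT 21, 0.355 in WT 22, 0.732 in the library labelled WT 23, against 1.51, 0.734 and 1.20 in Atg5 CD11cKO 25, 26 and 27, or 12.0 to 47.0 counts a library. The log2 fold change was 0.91 with a 95% interval from -0.39 to 2.20 (edgeR, adjusted p = 0.28) against WT 21 and 22 and 0.81 with an interval from -0.34 to 1.95 (adjusted p = 0.43) as labelled. The labelled groups overlapped, by 0.734 CPM in Atg5 CD11cKO 26 against 0.871 in WT 21.

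Over the 6 libraries as labelled, edgeR called no gene of these 4 lists in either direction. At an unadjusted p under 0.05 it had 0 higher and 0 lower in the IKK group, 2 and 3 among the receptor-proximal genes, 2 and 0 among the other regulators and 5 and 6 among the targets, where 5.21% of all genes were higher and 9.17% lower, so that these counts say nothing particular about the lists. DESeq2 called 1 receptor-proximal gene lower and limma-voom none. Traf1, Bcl3 and Zc3h12a stand in the target list and in one of the other lists.

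**Figure D4:**
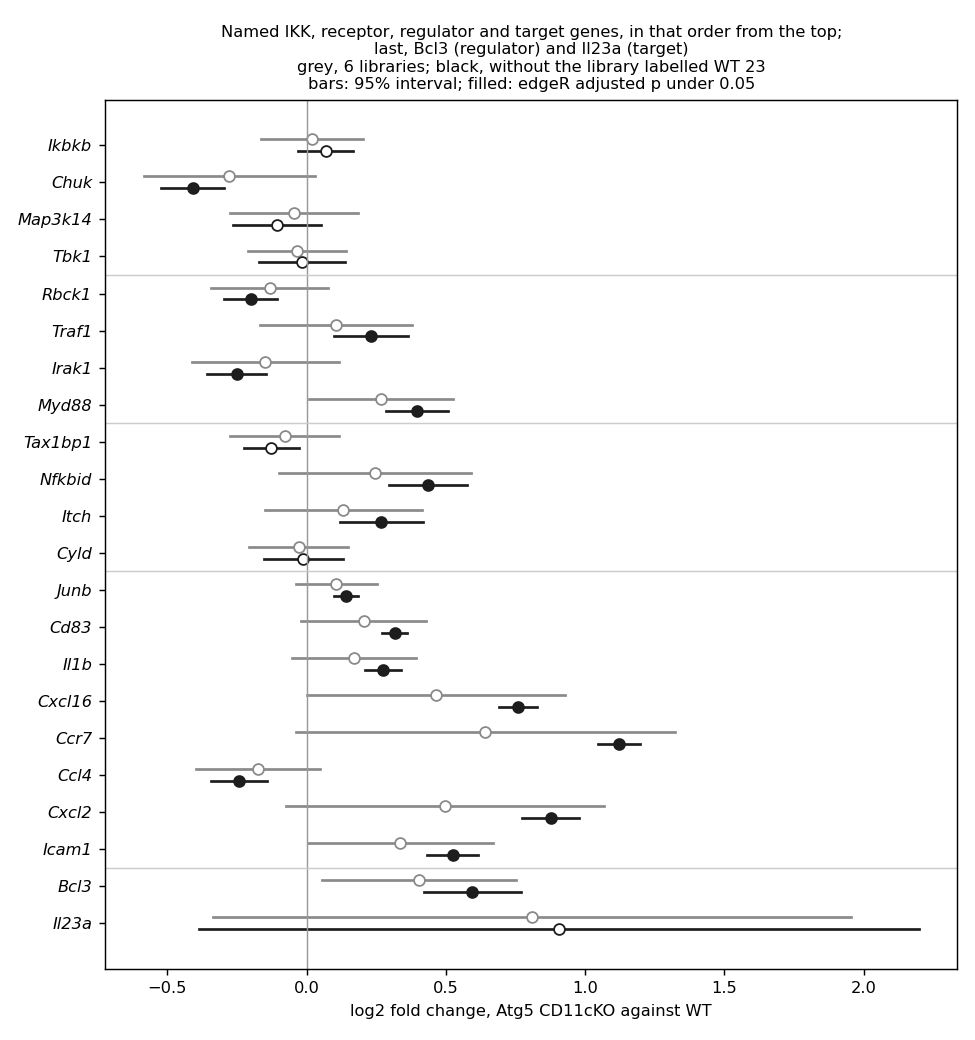
Log2 fold change of Atg5 CD11cKO against WT (horizontal axis) with 95% intervals from edgeR for the named genes upstream and downstream of NF-kB (vertical axis), in blocks from the top: IKK kinases, receptor-proximal genes, other regulators, targets, and last Bcl3 and Il23a. Grey is the 6 libraries as labelled, black is without the library labelled WT 23, and filled points passed an adjusted p of 0.05. Grey points are all open, Ccr7 has the largest black filled value at 1.12, and Il23a has the widest interval.

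Markers of several cell types moved with the same split of the libraries, and in bulk RNA fewer cells of a type and less RNA per cell cannot be told apart. The calls of this paragraph and the next are edgeR's against WT 21 and 22, where 15.9% of all genes rose and 15.1% fell. As labelled, edgeR called no marker. The summed level of 17 mature DC markers, which include Ccr7, Cd40 and Cd83 and are in part NF-kB targets, was 3061 to 3166 CPM in WT 21 and 22, 4268 in the library labelled WT 23, against 4308 to 4345 in Atg5 CD11cKO, with 11 higher and 3 lower. Lipid-associated macrophage markers were at 2372 CPM in both WT 21 and 22, 7956 in the library labelled WT 23, against 8031 to 8077 in Atg5 CD11cKO, with 12 of 12 higher. In the opposite direction, plasmacytoid DC markers (10 of 10 lower) stood at 2094 to 2118, 892 and 873 to 885 CPM, in the same order. The cDC1 markers (9 of 10 lower and 1, Batf3, higher) stood at 5036 to 5066, 3599 and 3578 to 3657 CPM. T cell markers (8 of 10 lower) stood at 447 to 452, 206 and 210 to 216 CPM and NK cell markers (7 of 10 lower) at 1690 to 1738, 635 and 647 to 649 CPM.

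Lists for cells outside the CD11c+ fraction differed among themselves. Pancreatic acinar genes (12 of 12 lower) had 18389 to 18726 CPM in WT 21 and 22, 359 in the library labelled WT 23, against 369 to 390 in Atg5 CD11cKO, and hepatocyte genes (12 of 12 lower) had 1655 to 1688, 324 and 322 to 333 CPM. B cell markers (1 of 10 lower) lay at 90.9 to 98.1, 80.8 and 75.7 to 90.0 CPM and neutrophil markers (1 higher and 4 lower of 9 tested) at 121 to 128, 92.7 and 91.9 to 96.8 CPM. The 10 markers of DCs and macrophages used to check the label of the fraction summed to 51773 to 52569 CPM in WT 21 and 22, 59278 in the library labelled WT 23, against 60083 to 61945 in Atg5 CD11cKO. Of these markers 8 were higher and 1, Flt3, was lower. The remaining lists, not all of them for cells outside the fraction, had 5 higher and 2 lower of 8 cDC2 markers and 3 and 3 of 8 endothelial markers. Of 12 Kupffer cell markers 5 were higher (C1qa, C1qb, C1qc, Id3 and Nr1h3). The other 7 were lower (Clec4f, Vsig4, Timd4, Cd5l, Marco, Slc40a1 and Folr2). No list gene tested was at 0 in any library. The part of these cell types in the levels of the 10 genes was not tested.

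For each member, the 2 genes with the nearest profile over the 6 libraries were taken from 10804 genes with at least 5 CPM, by the root mean square distance of log2 CPM centred on its mean. The distances were 0.0137 to 0.0363. Nearest to Nfkb2 were Fkbp4 and Fos, to Relb Clta and Cdc40, to Nfkb1 Rbm28 and Gm20390, to Rela Ptgs1 and Mgat1, and to Rel Zhx3 and Golgb1. Nearest to Nfkbia were Aldoa and Atp6v0b, to Tnfaip3 Aebp2 and Stk10, to Nfkbie P2rx4 and Dbi, to Nfkbiz Tm9sf3 and Nbdy, and to Nfkbib Rps19-ps6 and Aagab, of which Rps19-ps6 is a pseudogene whose reads may belong to its parent gene. No member was among the nearest genes of another. All of these profiles come from the same 6 libraries, in which WT 21 and 22 stand apart from the other 4.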

How the data were processed

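RNA was sequenced from 6 libraries of hepatic CD11c+ cells. As deposited, one table holds expected counts (estimated counts) per gene, for which the submitters' processing notes name STAR 2.5.3a, bcl2fastq 2.17.1.14, Partek and the build mm10. Which annotation and strand setting were used in counting is not given in the sources. A second deposited table lists a normalized signal for 20388 genes, equal to the count plus 1 times 1 factor per library, and served as an alternative. Counts were rounded, filtered with filterByExpr, scaled by TMM and tested with edgeR 4.0.16 in R 4.3.3 over all genes, at a Benjamini-Hochberg adjusted p of 0.05. Alternatives used DESeq2 1.42.0, limma 3.58.1 (voom, or log2 of the normalized signal), other size factors and filters, and the omission of each library. The edgeR steps were tested on simulated counts, in which no control library resembled the other group. Coordinates and exon lengths are from GENCODE vM21 (GRCm38, mm10). The log2 CPM of the balances used a pseudocount of 2 counts. Figures were drawn with matplotlib 3.10.9.

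The members, lists, tests and the omission of the library labelled WT 23 were chosen with earlier results of these data known. Named were all 10 members, the 4 (targets: 8) genes with the highest mean CPM in each list, Map3k14, Bcl3, Cyld and Il23a, the 2 nearest genes of each member, and Atg5 and Itgax.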

Additional observations from a re-analysis of the deposited data

How the results depend on the processing

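The 7 members that rose against WT 21 and 22 passed in all 13 alternatives, while Rel, at an adjusted p of 0.095, passed in 2 (a filter of 1 CPM in 3 libraries, and without WT 22), which gave 1 member lower; leaving out each library in turn gave 0 to 1. Over the 6 libraries as labelled, DESeq2 called 37 genes higher and 305 lower, and leaving out each library gave 0 to 2900 higher and 0 to 2755 lower genes and 0 to 7 members higher, all calls coming without WT 23; the cause was not tested. Both balances kept their direction in every alternative run. Values near 0 changed sign in 5 genes, none called. Over the 6 libraries the log2 fold changes with each library left out ran from -0.024 to 0.068 for Ikbkb, -0.11 to 0.029 for Map3k14, -0.0092 to 0.11 for Nfkbib, -0.056 to 0.0013 for Tbk1 and -0.065 to 0.0024 for Cyld. Against WT 21 and 22 they ran from -0.040 to 0.084 for Nfkbib, -0.045 to 0.016 for Tbk1 and -0.048 to 0.016 for Cyld, and Cyld was at 0.0013 with library totals only. Nfkbib was at -0.0047 with a filter of 1 CPM in 3 libraries, and at -0.0012 and -0.0013 on the normalized signal with pseudocounts of 1 and 0.1. No paired analysis was possible because the WT and Atg5 CD11cKO libraries share no replicate number.

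With 2 WT libraries the spread of the controls rests on 1 difference, and no permutation of 5 or 6 libraries can pass 0.05. Il23a, at 12.0 to 47.0 counts a library, is limited by depth, and the counts of Il6 are not given here.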

Other observations

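Rel stood out in the comparison of the library labelled WT 23 with the Atg5 CD11cKO libraries, which it otherwise resembled. Its level there was 1.24 times that of the highest Atg5 CD11cKO library. Of 4007 genes with a mean of at least 50 CPM, 2 had a ratio this high, Rel and Itpr1, which encodes an inositol trisphosphate receptor. Rel was singled out after its values had been seen, the library is a single one, and no test was made.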
